A study of Mus musculus with 4 samples.

Results

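The genes described here are the fibroblast growth factors Fgf1, Fgf2, Fgf7, Fgf9, Fgf10, Fgf18 and Fgf21 and the receptors Fgfr1, Fgfr2 and Fgfr3, measured in a pair of mouse stromal cell lines. The members were given by name, and every probe set that the array annotation maps to 1 of these genes alone was taken. This gave 19 probe sets for the 10 genes, 11 for the 7 ligands and 8 for the 3 receptors, out of 45037 probe sets tested and 18193 genes. Of the lines, OP9M2 is labelled as mesenchymal stem cells and as supportive of human hematopoietic progenitors in co-culture, and BFC012 is labelled as a non-supportive fibroblast line, taken from mouse fetal liver. OP9M2 is a single clone grown from OP9 stroma. Cells of either line received 2000 rad, were seeded at a density of 25000 per square centimetre and were harvested after 48 hours; no array of untreated cells was used. OP9M2 was kept in 20% serum and BFC012 in 10%, so that serum and line cannot be told apart. Each line had 2 arrays from samples labelled as biological replicates, each with RNA of a culture plate. Nothing says how far the cultures of a line were separated, so the p-values measure only the spread between these samples.

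Most fibroblast growth factors are secreted proteins that bind receptor tyrosine kinases at the cell surface, and most of these need heparan sulfate chains to do so. The occupied receptor signals through the adaptor Frs2 to the Ras and ERK cascade, which in turn induces inhibitors of its own such as the Sprouty proteins and Dusp6. In many organs the mesenchyme makes Fgf7 and Fgf10 and the epithelium carries the Fgfr2 form that answers them, whereas mesenchymal cells signal largely through Fgfr1. In bone marrow cultures the family is known for its mitogenic effect on stroma, and Fgf1 has been used to grow mouse hematopoietic stem cells.

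Values are given as log2 values, and differences as OP9M2 minus BFC012 in log2 units with the moderated SE of limma (n = 2 arrays a line). A probe set was called at a limma adjusted p under 0.05 (Benjamini-Hochberg, 45037 probe sets) if the lines also lay 1 log2 unit (2-fold) or more apart. The background level was 6.09 log2 units, the 95th percentile of 81 probe sets of odorant and related receptor genes. Where neither array of a line exceeded it, the fold is written as at least the mean of the brighter line over that level. Levels of different probe sets are not compared with each other. The OP9M2 arrays differed from each other by 1 log2 unit or more in 2842 probe sets (r = 0.980), and the BFC012 arrays in 291 (r = 0.994). OP9M2 replicate 2 carried less poly-A control RNA, with a mean log2 value of 3.84 over those control probe sets, against 6.20 to 7.64 on the 3 other arrays. Of 11 measured mesenchymal stem cell markers 9 were above background on both arrays of either line, with Thy1 and Lepr above it on none. Of 10 fibroblast markers 7 were above background on both arrays of either line, without Dcn and Lum in OP9M2 and without Lum and Fap in BFC012. Markers of mesothelium separated the lines, with 1 of 5 above background on both OP9M2 arrays (mean over the markers 5.10 to 5.43, Upk3b, Wt1, Gpm6a and Lrrn4 not above it on either array) and 5 of 5 on both BFC012 arrays (mean 10.0 to 10.3). For epithelium the numbers were 2 of 5 in OP9M2 (mean 6.15 to 6.65) and 4 of 5 in BFC012 (mean 7.28 to 7.77), with Cdh1, Krt8 and Krt18 not above background on either OP9M2 array and Krt18 on neither BFC012 array. In bulk RNA fewer cells of a type and less RNA per cell cannot be told apart.

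Among the members, 2 genes were called between the lines. Fgfr1 was higher in OP9M2 (4.73-fold by its brightest probe set) and Fgf18 was lower (at least 5.47-fold). By probe set, 2 were called higher, 1 lower and 16 were not called, where 1.8% of the 45037 probe sets were called higher, 2.66% lower and 4.46% in either direction. Counted as genes, 1 of 10 was higher and 1 lower, against 2.36% higher, 3.56% lower and 5.91% in either direction among 18193 genes. An unadjusted p under 0.05 was found for 7 of the 19 probe sets and for 8729 of all. The median difference was -0.05 over the member probe sets and 0.04 over all probe sets. With each gene read by its brightest probe set, it was -0.33 over the members and 0.03 over all genes. In 12 of the 19 probe sets the arrays of the lines did not overlap, where 49.5% of all probe sets had this property. Of the 19 probe sets 8 were above background on both OP9M2 arrays, 11 on both BFC012 arrays, and 7 were below it on every array.

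**Figure D1:**
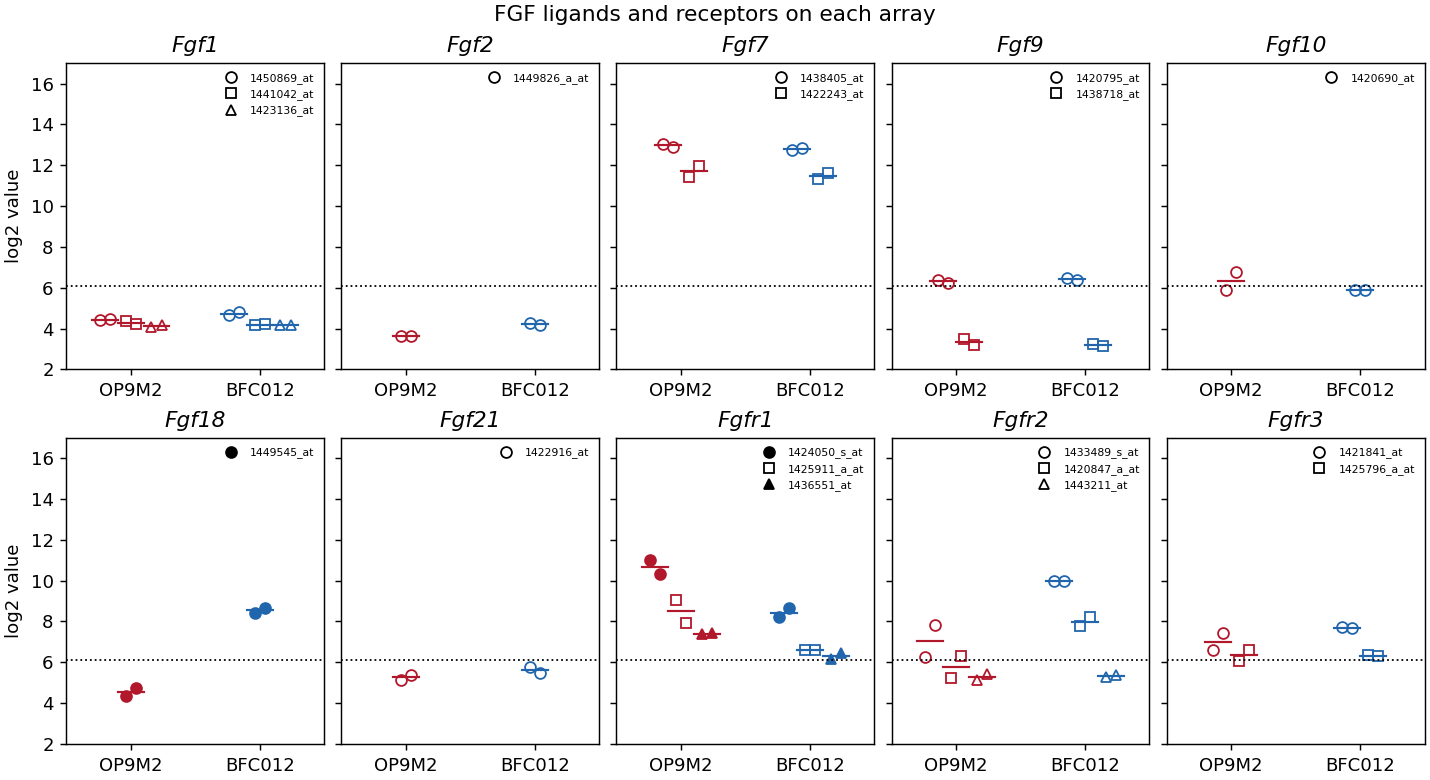
Log2 value (vertical axis) of each of the 19 member probe sets on the 2 OP9M2 arrays (red) and the 2 BFC012 arrays (blue), 1 panel per gene. Symbols stand for probe sets, filled symbols for called ones, short lines for the mean of a line, and the dotted line for the background level of 6.09. The OP9M2 values of Fgf18 (4.33 and 4.72) are below the dotted line and its BFC012 values (8.43 and 8.66) above it, Fgfr1 is the gene with called probe sets higher in OP9M2, and Fgf7 lies far above background on every array.

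Fgf18, a ligand known for its part in cartilage and bone growth, had log2 values of 4.33 and 4.72 on the OP9M2 arrays, against 8.43 and 8.66 on the BFC012 arrays (1449545_at). Both OP9M2 arrays were below background and both BFC012 arrays were well above it, and the arrays lay 0.39 log2 units apart within OP9M2 and 0.23 within BFC012. The difference was -4.02 ± 0.20 (95% interval -4.54 to -3.50, limma adjusted p = 0.00278), which is at least 5.47-fold lower in OP9M2. The bound moves with the background level, to 3.25-fold with the 99th percentile of the receptor probe sets. The means over the mesothelial and over the epithelial markers given above were also lower in OP9M2. The part of these markers in this difference was not tested.

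Fgf7, the keratinocyte growth factor that stroma makes for epithelium, was abundant in both lines. Its log2 values were 13.06 and 12.87 in OP9M2, against 12.76 and 12.83 in BFC012, by 1438405_at. By 1422243_at they were 11.43 and 11.98 in OP9M2, against 11.33 and 11.62 in BFC012. The differences were 0.17 ± 0.14 (95% interval -0.21 to 0.55, limma adjusted p = 0.618) and 0.23 ± 0.25 (-0.43 to 0.88, adjusted p = 0.711). Neither was called.

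The promoters of these ligands are shown because they are the member ligand that differed and the member ligand that was high in both lines. Each is the window of 250 bases before the annotated start in RefSeq (GRCm38.p6), printed 5′ to 3′ on the strand of the gene, where 8 of the 10 members had an entry. Capitals mark matches on either strand to the TATA box (TATAAA), the CCAAT box (CCAAT) or the GC box (GGGCGG), which do not overlap in the windows shown. Of 32851 promoter windows of this length 12.4%, 33.9% and 32.7% held them, in that order. The Fgf18 window lies at chr11:33147401-33147650 on the minus strand, and the Fgf7 window at chr2:126034408-126034657 on the plus strand.
Fgf18: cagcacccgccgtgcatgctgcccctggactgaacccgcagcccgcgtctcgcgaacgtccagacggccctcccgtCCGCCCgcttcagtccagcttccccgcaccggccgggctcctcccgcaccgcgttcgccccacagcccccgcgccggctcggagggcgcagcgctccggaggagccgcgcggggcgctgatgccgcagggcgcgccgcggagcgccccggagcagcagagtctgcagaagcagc
Fgf7: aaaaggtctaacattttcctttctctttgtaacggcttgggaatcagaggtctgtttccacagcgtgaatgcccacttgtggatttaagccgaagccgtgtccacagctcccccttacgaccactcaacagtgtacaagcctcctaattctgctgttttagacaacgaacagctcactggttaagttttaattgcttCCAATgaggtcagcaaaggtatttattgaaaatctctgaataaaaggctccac
The Fgf18 window had a GC content of 77.2% and 1 GC box, and the Fgf7 window 43.6% and 1 CCAAT box, where the median over all windows was 52.4%. These matches describe the letters only.

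The remaining ligands were near or below background. Fgf10, a mesenchymal ligand of limb and lung buds, had 5.87 and 6.78 in OP9M2, against 5.90 and 5.89 in BFC012, so that only OP9M2 replicate 2 was above background (difference 0.43 ± 0.33, limma adjusted p = 0.579). Fgf9, which signals from mesothelium and epithelium to mesenchyme in the lung, had 6.40 and 6.22 in OP9M2, against 6.50 and 6.39 in BFC012, by 1420795_at (-0.13 ± 0.14, adjusted p = 0.709). Its other probe set 1438718_at was below background on every array. The Fgf9 and Fgf10 values of the lines overlapped, and neither gene was called.

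Fgf2, the basic fibroblast growth factor widely used to expand mesenchymal cells, was below background on all 4 arrays. Its values were 3.63 and 3.66 in OP9M2, against 4.29 and 4.17 in BFC012 (-0.59 ± 0.13, limma adjusted p = 0.104). Fgf21, an endocrine factor of the liver, had 5.14 and 5.38 in OP9M2, against 5.76 and 5.49 in BFC012, again below background throughout. The 3 probe sets of Fgf1, the acidic fibroblast growth factor, were below background on all arrays, with differences between -0.29 and 0.10. At these signals no fold is given, and a difference in these transcripts was not measurable on the arrays.

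**Figure D2:**
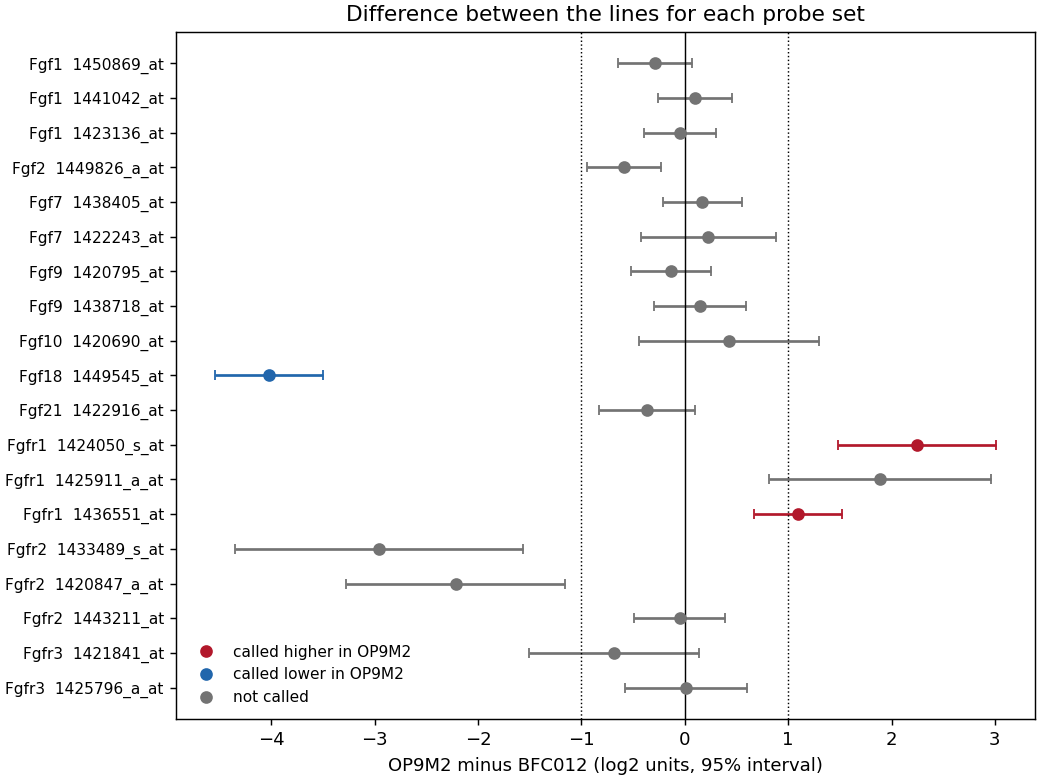
Difference between the lines (horizontal axis, OP9M2 minus BFC012, log2 units) for each of the 19 member probe sets, with the 95% interval of limma as bars. Red marks called higher in OP9M2, blue called lower and grey not called, and the dotted lines mark a 2-fold difference. Fgf18 at -4.02 and Fgfr1 at 2.24 and 1.10 are the called probe sets, and a pair of Fgfr2 probe sets at -2.96 and -2.22 lies outside the dotted lines without a call.

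Of the 3 receptors, Fgfr1 was called higher in OP9M2, and Fgfr2, with values on the other side, was not called. Fgfr1, the main receptor of mesenchymal cells, had log2 values of 11.01 and 10.35 in OP9M2, against 8.23 and 8.64 in BFC012, by its brightest probe set 1424050_s_at. The difference was 2.24 ± 0.29 (95% interval 1.48 to 3.01, limma adjusted p = 0.0283), or 4.73-fold higher in OP9M2. By 1436551_at Fgfr1 had 7.38 and 7.42 in OP9M2, against 6.16 and 6.45 in BFC012, a difference of 1.10 ± 0.16 (adjusted p = 0.0389) or 2.14-fold, close to the smallest change that could be called. These BFC012 values lay just above the background level of 6.09 and under the 99th percentile level of 6.84. By 1425911_a_at Fgfr1 had 9.07 and 7.92 in OP9M2, against 6.59 and 6.62 in BFC012. With OP9M2 arrays 1.15 log2 units apart the difference of 1.89 ± 0.40 was not called (adjusted p = 0.0909). On all 3 probe sets both OP9M2 arrays were above both BFC012 arrays, where the lines did not overlap, in either direction, in 49.5% of all probe sets. The ending s_at marks a probe set whose probes can match transcripts of more than a single gene, which holds for 1424050_s_at and for the brightest probe set of Fgfr2.

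Fgfr2, whose splice forms serve epithelium or mesenchyme, had 6.27 and 7.80 in OP9M2, against 10.00 and 10.00 in BFC012, by 1433489_s_at. The difference was -2.96 ± 0.53 (95% interval -4.36 to -1.56) and was not called (limma adjusted p = 0.0599). By 1420847_a_at Fgfr2 had 5.24 and 6.29 in OP9M2, against 7.77 and 8.19 in BFC012, and 1 of the 2 OP9M2 arrays was above background there (-2.22 ± 0.40, adjusted p = 0.0616). The lines did not overlap on either probe set, as in 49.5% of all probe sets, and the OP9M2 arrays were 1.53 and 1.05 log2 units apart. Testing only probe sets above background on at least 2 arrays gave adjusted p of 0.0397 and 0.0421 for the pair, and a variance trend with intensity gave 0.0477 and 0.0490, so that the call of Fgfr2 depends on the setting. The 1443211_at probe set of Fgfr2 was below background on every array.

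The Fgfr2 promoter window, shown because this receptor had the largest difference among those not called, lies at chr7:130266809-130267058 on the minus strand. It held none of the 3 motifs, had a GC content of 44%, and is printed in the same way as the ligand promoters above.
Fgfr2: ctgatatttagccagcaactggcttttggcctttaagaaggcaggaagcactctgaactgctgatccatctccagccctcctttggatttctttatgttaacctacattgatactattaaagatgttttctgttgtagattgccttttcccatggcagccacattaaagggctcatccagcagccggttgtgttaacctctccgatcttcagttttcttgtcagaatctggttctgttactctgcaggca
No match says only that those letters are not in the window.

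Fgfr3, a receptor that restrains growth of cartilage, had 6.59 and 7.44 in OP9M2, against 7.72 and 7.68 in BFC012, by 1421841_at (-0.69 ± 0.31, limma adjusted p = 0.338). By 1425796_a_at it had 6.06 and 6.61 in OP9M2, against 6.35 and 6.31 in BFC012, a difference of 0.01 ± 0.22. Neither was called. The balance of receptors was also taken within each array, as the log2 value of the brightest Fgfr1 probe set minus that of Fgfr2. It was 4.73 and 2.54 on the OP9M2 arrays, against -1.76 and -1.36 on the BFC012 arrays. The shift between the lines was 5.20 ± 1.11 log2 units, with a plain SE from the 2 values a line and not the moderated SE of limma. It was formed after the receptors' values were seen and adds up their differences, so that no test is given. The offset between the probe sets has no meaning on its own, and only the difference of this value between the lines can be read.

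No call held with a BFC012 array left out. Without BFC012 replicate 1 or without BFC012 replicate 2 the spread came from the OP9M2 arrays alone, the lone BFC012 array being assumed to vary as they did, and limma called 0 probe sets in either direction (4568 and 4517 at an unadjusted p under 0.05). The adjusted p of Fgf18 was then 0.0987 and 0.113, with differences of -4.13 and -3.91. That of Fgfr1 1424050_s_at was 0.307 and 0.257, with differences of 2.04 and 2.44. For Fgfr1 1436551_at the adjusted p was 0.324 and 0.250, with differences of 0.95 and 1.24. With an OP9M2 array left out, the spread came in turn from the closely matching BFC012 arrays alone and the lone OP9M2 array was assumed to vary as they did. Calls then increased over all probe sets, to 2181 higher and 2256 lower without OP9M2 replicate 2 and to 1451 and 1759 without OP9M2 replicate 1, so that the p-values of these fits do not bear on the spread of OP9M2 and only the differences are given here. Without OP9M2 replicate 2, the array with less poly-A control RNA, the difference was -4.21 for Fgf18. It was 2.57, 2.46 and 1.08 for Fgfr1 1424050_s_at, 1425911_a_at and 1436551_at, and -3.72 and -2.74 for Fgfr2 1433489_s_at and 1420847_a_at. Without OP9M2 replicate 1 it was -3.83 for Fgf18, 1.91, 1.31 and 1.11 for these Fgfr1 probe sets and -2.19 and -1.69 for these Fgfr2 probe sets. Fgfr3 1421841_at was at -1.11 without OP9M2 replicate 2 and at -0.26 without OP9M2 replicate 1. The direction was the same in each of these 4 fits for Fgf18, the 3 Fgfr1 probe sets and these Fgfr2 probe sets, whereas the size for Fgfr2 moved with the OP9M2 array left out.

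**Figure D3:**
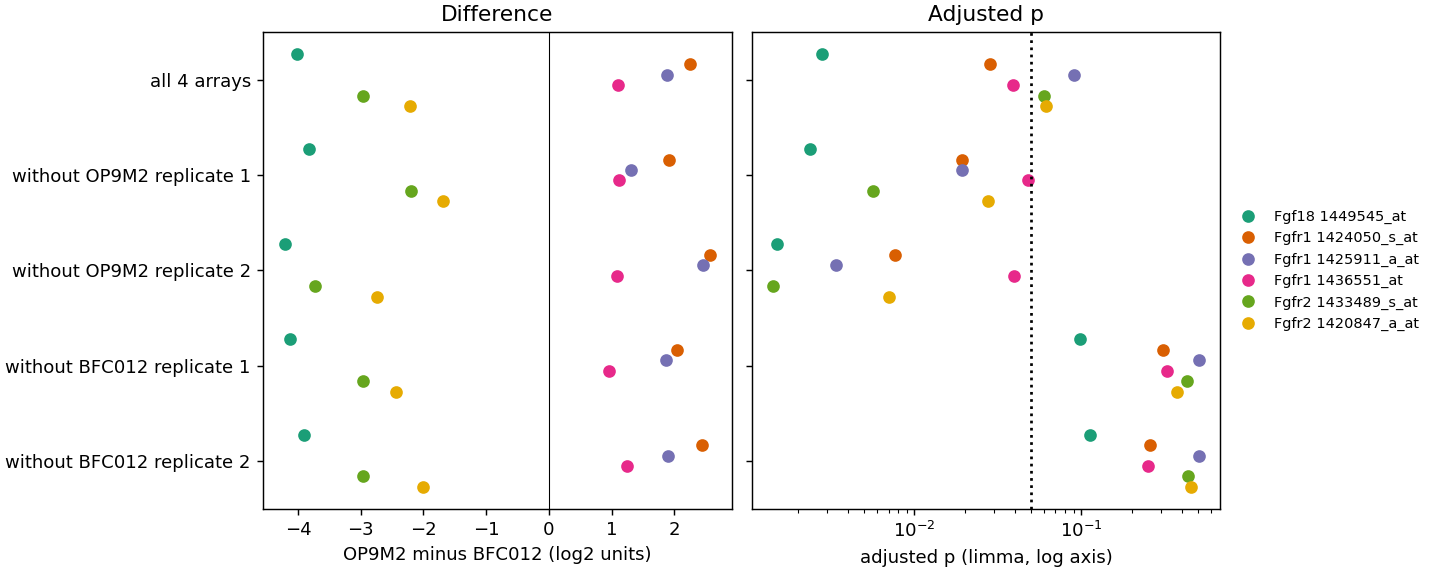
Difference between the lines (left, OP9M2 minus BFC012, log2 units) and limma adjusted p (right, log axis, dotted line at 0.05) for 6 probe sets of Fgf18, Fgfr1 and Fgfr2, with all 4 arrays and with each array left out. The differences keep their direction in every row, and no adjusted p is under 0.05 once a BFC012 array is left out; with an OP9M2 array left out the adjusted p rests on the spread of the BFC012 arrays alone.

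Around the members, 99 of 108 listed pathway genes were measured, each by its brightest probe set, of which limma called 1 higher and 5 lower, leaving 93 without a call. The 6 called are 6.06% of the measured genes, close to the 5.91% of all genes. An unadjusted p under 0.05 was found for 32 of the 99 (32.3%), where 23.3% of all genes had such a p. The median difference of these genes was -0.14, against 0.03 over all 18193 genes. None of the 15 other family genes, which include intracellular relatives such as Fgf13, was called. Of these genes 13 were below background on every array (1 with an unadjusted p under 0.05). The largest difference among them was 0.50 for Fgf12, itself below background on every array. Among the 7 member ligands and these 15 genes, Fgf18 alone was called by its brightest probe set.

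Of 10 other receptors and co-receptors 0 were called by limma (3 at an unadjusted p under 0.05). Over all genes 5.91% were called and 23.3% had such a p. The largest difference in this list was that of Cdh2, or N-cadherin, which can hold Fgfr1 at the cell surface. It had 7.41 and 9.51 in OP9M2, against 11.60 and 11.75 in BFC012 (-3.22 ± 0.71, limma adjusted p = 0.0978). The Cdh2 arrays of OP9M2 were 2.10 log2 units apart, and the gene was not called by this probe set. The decoy receptor Fgfrl1 had 12.25 and 11.11 in OP9M2, against 9.78 and 9.43 in BFC012, and was not called either (2.07 ± 0.42, adjusted p = 0.0793).

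Among 14 carriers and heparan sulfate core proteins limma called 1 higher and 0 lower (6 at an unadjusted p under 0.05). Over all genes 2.36% were called higher, 3.56% lower and 23.3% had such a p. Sdc3, a syndecan that carries heparan sulfate at the cell surface, had 9.94 and 10.50 in OP9M2, against 7.79 and 7.65 in BFC012. It was 5.66-fold higher in OP9M2 (2.50 ± 0.23, limma adjusted p = 0.0123), while its other probe sets, at 0.16 and 0.72, were not called. Gpc1, a glypican anchored by a lipid, had 12.14 and 10.42 in OP9M2, against 8.0 and 7.90 in BFC012, a difference of 3.33 ± 0.59 that was not called (adjusted p = 0.0596) with OP9M2 arrays 1.72 log2 units apart. With dim probe sets left out its adjusted p was 0.0389 and with a variance trend 0.0460, so that the call of Gpc1 depends on the setting, and the difference was 4.19 without OP9M2 replicate 2 and 2.47 without OP9M2 replicate 1.

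Of 18 measured heparan sulfate enzymes 0 were higher, 2 lower and 16 not called (5 at an unadjusted p under 0.05). Over all genes 2.36% were called higher, 3.56% lower and 23.3% had such a p. Hs3st1, a sulfotransferase that adds the rare sulfate needed for antithrombin binding, had 4.51 and 4.86 in OP9M2, against 7.58 and 8.84 in BFC012, and was at least 4.33-fold lower in OP9M2 (-3.52 ± 0.45, limma adjusted p = 0.0286). Hpse, the heparanase that cuts the chains, had 5.50 and 5.25 in OP9M2, against 7.33 and 7.77 in BFC012, and was at least 2.75-fold lower (-2.18 ± 0.21, adjusted p = 0.0145). Both genes were below background on both OP9M2 arrays, and with the 99th percentile of the receptor probe sets as background the bounds were 2.57-fold for Hs3st1 and 1.63-fold for Hpse. The enzymes that build the chain backbone, Ext1 and Ext2, had differences of -0.25 and 0.15 and were not called.

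None of the 17 measured adaptors and relay proteins was called (4 at an unadjusted p under 0.05), and the largest difference was -1.69 for the docking protein Gab1 (limma adjusted p = 0.182). Its OP9M2 arrays were 1.49 log2 units apart, and the difference was -0.94 without OP9M2 replicate 2 and -2.43 without OP9M2 replicate 1. Of 12 feedback inhibitors limma called 0 higher and 2 lower (6 at an unadjusted p under 0.05). Over all genes 2.36% were called higher, 3.56% lower and 23.3% had such a p. Spry1, a Sprouty inhibitor of receptor signalling, had 7.69 and 7.69 in OP9M2, against 10.99 and 10.81 in BFC012, and was 9.23-fold lower in OP9M2 (-3.21 ± 0.14, adjusted p = 0.00222). The OP9M2 values of Spry1 were identical to the digits deposited. Dusp6, the phosphatase of ERK, had 10.60 and 9.90 in OP9M2, against 12.27 and 12.05 in BFC012, and was 3.76-fold lower (-1.91 ± 0.28, adjusted p = 0.0374). The inhibitors Spry2 and Spred2 had differences of -0.36 and -0.21 and were not called. Over the 12 inhibitors the differences ran from -3.21 to 0.92, with a median of -0.47.

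Of 8 measured transcriptional targets 0 were called by limma (4 at an unadjusted p under 0.05), with a median difference of -0.95. Their differences ran from -2.56 to 1.17. Over all genes 5.91% were called and 23.3% had an unadjusted p under 0.05. Fos, an immediate early gene that serum and many receptors besides those of this family induce, had 10.41 and 9.84 in OP9M2, against 11.98 and 13.39 in BFC012 (-2.56 ± 0.52, adjusted p = 0.0809). Of the Ets factors Etv4 and Etv5, which are widely used readouts of the pathway, Etv4 differed by -0.82 (adjusted p = 0.0472), short of the 2-fold change a call needed, and Etv5 by 0.28 (0.603). With log2 of the deposited values the difference of Etv4 was -1.18 and it was called lower, so that this depends on the scale. Serum differed between the lines as well, and its part in these values cannot be told apart from that of the line.

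Of 5 regulators of receptor exon choice 0 were higher, 1 was lower and 4 were not called (3 at an unadjusted p under 0.05). Over all genes 2.36% were called higher, 3.56% lower and 23.3% had such a p. Esrp2, a splicing factor that favours the epithelial form of Fgfr2, had 5.96 and 6.18 in OP9M2, against 8.05 and 8.24 in BFC012, with 1 of the 2 OP9M2 arrays above background. It was lower in OP9M2 (-2.08 ± 0.16, limma adjusted p = 0.00787). The OP9M2 mean of 6.07 was just under background although 1 array exceeded it, and no fold is given here. The other Esrp2 probe set, at -0.79, was not called. Its relative Esrp1 was below background on every array. The epithelial markers above gave 2 of 5 above background in OP9M2, against 4 of 5 in BFC012, and their part in the values of Esrp2 and Fgfr2 was not tested. The arrays did not tell the epithelial from the mesenchymal exon of Fgfr2.

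With OP9M2 replicate 2 left out, the spread again came from the BFC012 arrays alone. The 6 called pathway genes then had differences of 2.22 for Sdc3, -3.69 for Hs3st1, -2.05 for Hpse, -3.21 for Spry1, -1.56 for Dusp6 and -2.19 for Esrp2. Without BFC012 replicate 1 or replicate 2 none of them was called, and the limma adjusted p lay between 0.0953 (Spry1) and 0.360 (Dusp6) over these fits.

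**Figure D4:**
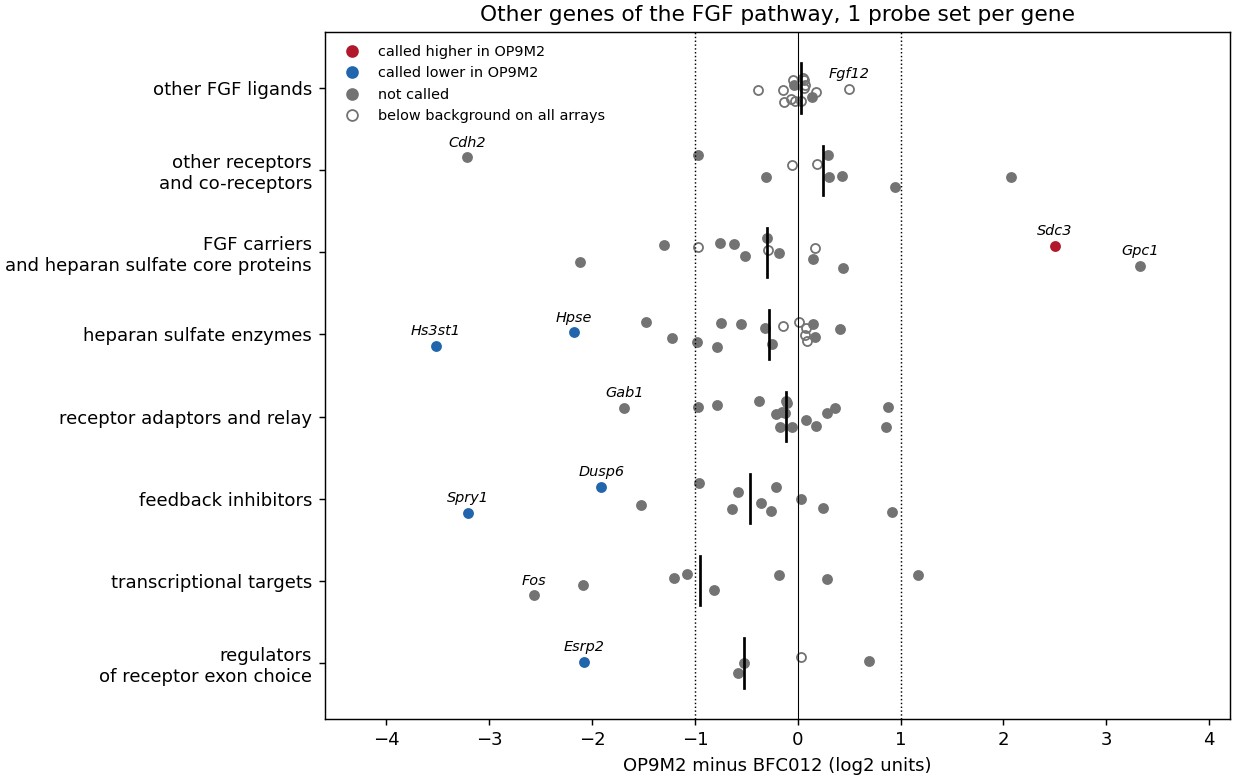
Difference between the lines (horizontal axis, OP9M2 minus BFC012, log2 units) for the 99 measured pathway genes besides the members, 1 point a gene, grouped by role. Red marks called higher in OP9M2, blue called lower, grey not called and open circles genes below background on every array; black bars give the median of a list and dotted lines a 2-fold difference. Sdc3 is the called gene to the right, and Hs3st1, Hpse, Spry1, Dusp6 and Esrp2 are the called genes to the left.

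The genes whose pattern over the 4 arrays was most like that of a called member were taken by Euclidean distance between mean-centred log2 values over 18193 genes. For Fgf18 these were Tnik (distance 0.050 log2 units), Cacna1c (0.217) and Zcchc3 (0.229). Tnik had 3.48 and 3.93 in OP9M2, against 7.59 and 7.81 in BFC012. For Fgfr1 they were Map2k6 (0.109), Mblac2 (0.117) and Nudt4 (0.143). Map2k6 had 8.43 and 7.71 in OP9M2, against 5.50 and 6.01 in BFC012. With 4 arrays of a pair of lines the distance describes a shared difference and a shared array order, and nothing further is drawn from it.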

How the data were processed

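Total RNA of OP9M2 and BFC012 was, per the methods of the study, amplified with a kit from Ambion and measured on Affymetrix expression arrays. The authors deposited a table of intensities with 1 value per probe set for each array. The submitters' processing notes name RMA and affy, with settings not given in the sources used here. Medians of the table were 440 and 451 for OP9M2 replicates 1 and 2, and 449 and 430 for BFC012 replicates 1 and 2. These values cannot be RMA intensities as such: 6.27% to 6.54% of them exceeded 65535, the largest scanner value, and they reached 2958707. Their natural logarithms spanned 2.06 to 14.9, as RMA log2 values do, and rose by 0.879 per doubling of spiked control RNA over 9 probe sets, where log2 of the same values rose by 1.27. The natural logarithm was therefore read as the log2 value. The base is not stated, and taking log2 instead would make each difference 1.44 times as large at an unchanged p.

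The 64 array controls among 45101 probe sets were left out. The annotation named 1 gene for 34945 probe sets, several for 932 and none for 9160, and 34741 of the first were matched to the reference gene table. A gene was represented by its brightest probe set, by the mean of all arrays. Lines were compared in R 4.3.3 with limma 3.58.1 (lmFit, then eBayes, no covariate, two-sided), with Benjamini-Hochberg adjustment over 45037 probe sets, and 2 residual and 2.50 prior degrees of freedom. The script was tested on simulated data with an equal spread in both lines. That test does not cover the wider spread between the OP9M2 arrays. Other steps used Python 3.11.15, scipy 1.17.1 and matplotlib 3.10.9. The number of arrays limits the precision.

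Named genes were all members with each probe set, every called gene of 8 pathway lists with the largest difference of each list, and the 3 genes nearest in pattern to each called member. Fgfrl1, Ext1, Ext2, Spry2, Spred2, Etv4, Etv5 and Esrp1 were named besides these, after their values were seen. The members and lists were chosen with earlier results of these data known. Replicate numbers are shared between the lines in the labels. Deviations of same-numbered arrays from the mean of their line correlated at -0.10, and the fit had no block. With 2 arrays a line this correlation cannot decide whether the arrays were paired. Alternatives were the scale, quantile normalization, median centring, a filter on dim probe sets, variance trend and robust prior, a replicate block, each array left out, no minimum fold, the mean of probe sets and the background percentile.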

Additional observations from a re-analysis of the deposited data

How the results depend on the processing

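Over 19 member probe sets and their alternatives, 184 of 211 values kept direction and side of the threshold, 8 lost a call, 11 gained a call and 8 turned direction; for 11 named pathway genes these were 97, 16, 7 and 0 of 120. Those that turned were never called. Leaving out each array in turn they ranged from -0.051 to 0.50 for Fgf7 1422243_at, -0.0083 to 0.30 for Fgf9 1438718_at, -0.025 to 0.88 for Fgf10, -0.21 to 0.11 for Fgfr2 1443211_at and -0.26 to 0.28 for Fgfr3 1425796_a_at (where without BFC012 replicate 2 gave -0.012); Fgfr3 1425796_a_at was -0.0060 with median centring, and Fgf9 0.0066 as the mean of its probe sets. Leaving out each array in turn gave 0 to 2181 probe sets higher and 0 to 2256 lower, member probe sets 0 to 3 higher and 0 to 4 lower, member genes 0 to 1 higher and 0 to 3 lower, and pathway genes 0 to 7 higher and 0 to 16 lower. With dim probe sets left out and likewise with a variance trend, 3 member probe sets and 2 member genes were lower and 2 pathway genes higher; the mean of probe sets also gave 2 pathway genes higher. The cause was not tested. With the background at the 99th percentile, 5 member probe sets were above it on both OP9M2 arrays and 7 on both BFC012 arrays.

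The labels give the lines the same replicate numbers and do not say whether a number marks a shared day or batch. With a replicate block, 245 probe sets were higher and 462 lower, with 0 member probe sets and 0 member genes higher, 0 pathway genes higher and 2 lower; Fgf18 was called (limma adjusted p = 0.0231) and the Fgfr1 probe sets were not (0.117 and 0.118). This fit has 1 residual degree of freedom in place of 2. The crossed pairing, added after the data were seen, gave 585 probe sets higher and 792 lower, with 1 member probe set higher.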

Other observations

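Some pathway genes had a called probe set other than the one that stands for the gene, and these were read after the fit. Fgf13, an intracellular relative of the growth factors that binds sodium channels, had 3.66 and 4.03 in OP9M2, against 6.33 and 5.71 in BFC012, by 1418497_at (-2.17 ± 0.27 log2 units, limma adjusted p = 0.0271), with 1 of the 4 arrays above background. Cdh2, or N-cadherin, had 6.94 and 8.30 in OP9M2, against 11.14 and 10.97 in BFC012, by 1449244_at (-3.43 ± 0.47, adjusted p = 0.0337). Sulf1, a sulfatase that trims heparan sulfate outside the cell, had 7.93 and 8.35 in OP9M2, against 9.60 and 9.49 in BFC012, by 1436319_at (-1.40 ± 0.19, adjusted p = 0.0339). Braf, a kinase of the ERK cascade, was called by 1 of its 9 probe sets (1425693_at, -1.03 ± 0.15, adjusted p = 0.0403). None of these was called when a BFC012 array was left out, where limma called 0 probe sets in all (4568 and 4517 at an unadjusted p under 0.05).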
